A study of Mus musculus with 15 samples.

Results

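The 10 markers described here were chosen as markers of tissue macrophages or of recruited monocytes. Adgre1, Mrc1, Cd163, Lyve1 and Vsig4 stand for resident macrophages, Cd68 and Trem2 for macrophages more widely, and Ly6c2, Ccr2 and Cx3cr1 for monocytes. Whether each is particular to those cells in bone was not tested. The markers were taken by gene symbol from a table of 55335 mouse gene IDs, and all 10 had a row. Tibial subchondral bone, the plate of bone under the joint cartilage, was profiled by poly(A) RNA sequencing in 3 groups of 5 libraries from male mice. The cKO DMM group carried Dmp1-Cre and Pvalb fl/fl alleles, a conditional knockout aimed at osteocytes because the Dmp1 promoter drives the recombinase, and had destabilization of the medial meniscus (DMM), a ligament cut that leads to osteoarthritis. The WT DMM group was C57BL/6J wild type with the same surgery, and the WT sham group was C57BL/6J wild type whose joint was opened with the ligament left whole. All mice were operated on when 8 weeks old, and their bone was taken 8 weeks later. The knockout mice were not stated to be littermates of the wild types. Knockout mice with sham surgery were not analysed here. The comparison of cKO DMM with WT sham therefore differs in both genotype and surgery, whose parts cannot be told apart. The labels call the libraries biological replicates and do not say whether each is 1 mouse, so p-values measure the spread between libraries.

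Macrophages are phagocytes that settle in tissues, some before birth and some from circulating monocytes. In bone and marrow they clear dying cells and aged red cells, and monocytes can also fuse into osteoclasts, the cells that resorb bone. In the mouse, classical monocytes leave the marrow through the chemokine receptor Ccr2 and carry Ly6C on their surface, whereas non-classical monocytes are high in the fractalkine receptor Cx3cr1. Resident cells take up mannosylated glycoproteins through Mrc1, haemoglobin bound to haptoglobin through Cd163, hyaluronan through Lyve1 and complement fragments through Vsig4. In whole bone RNA, fewer cells of a type and less RNA per cell cannot be told apart.

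Values were FPKM (fragment counts divided by gene length and sequencing depth), which summed to between 375453 and 468423 per library, with 12592 to 13510 genes at 1 FPKM or more. The table gave no counts, so the depth behind each value is unknown. By its FPKM alone, Pvalb, the targeted gene, did not separate the genotypes in whole tissue. It had 28.7, 23.7, 161.8, 88.4 and 165.6 FPKM in cKO DMM bone, 131.7, 95.3, 375.0, 39.1 and 33.0 FPKM in WT DMM bone, and 71.3, 490.1, 300.3, 15.8 and 402.3 FPKM in WT sham bone. The 3 groups overlapped, and the limma difference of cKO DMM minus WT DMM was -0.38 ± 0.94 (SE) on the log2(FPKM + 1) scale (adjusted p = 0.950). It was 0.44 without cKO DMM replicates 1 and 4 and WT DMM replicate 3, and -1.14 with fast muscle genes as a covariate. Pvalb is also a gene of fast muscle fibres. The summed FPKM of 10 fast muscle genes, in the same library order, was 739.0, 440.3, 2738, 937.5 and 2385 in cKO DMM bone. It was 987.4, 822.5, 2286, 321.0 and 224.7 in WT DMM and 595.0, 4109, 2290, 100.7 and 3463 in WT sham bone. Relative to that sum, Pvalb was lower in every cKO DMM library than in any wild-type library, which was seen after the fact. Beyond the muscle covariate, the part of muscle in the Pvalb values was not tested here. All 10 osteocyte and osteoblast genes listed to check the labelled tissue were detected in every library. Replicates 1 and 4 of cKO DMM and replicate 3 of WT DMM stood apart on the first principal component, which held 32.2% of the variance. Their distances from the median were 38.1, 36.0 and 50.1, against at most 16.2 for the other libraries.

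Genes were tested if 5 or more libraries reached 1 FPKM, and all 10 markers did. Their mean FPKM over the 15 libraries ran from 93.5 for Ly6c2 and 65.7 for Cd68 through 17.2 for Ccr2, 16.3 for Mrc1 and 16.1 for Adgre1 to 6.08 for Cd163. Trem2 at 3.25, Cx3cr1 at 3.06, Lyve1 at 2.09 and Vsig4 at 1.12 mean FPKM made up the low end. Ly6c2 was above Cd68, Cd68 above Ccr2, Adgre1 above Cd163 and Lyve1 above Vsig4 in 15 of 15 libraries. Ccr2, Mrc1 and Adgre1 could not be ordered among themselves, since Ccr2 was above Mrc1 in 8 libraries and Mrc1 above Adgre1 in 9. Cd163 exceeded Trem2 in 12 libraries, Trem2 exceeded Cx3cr1 in 9 and Cx3cr1 exceeded Lyve1 in 6. The lysosomal glycoprotein gene Cd68 varied least across libraries, with a highest value 1.5 times its lowest. Cx3cr1 varied most, with a highest value 14.4 times its lowest.

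**Figure D1:**
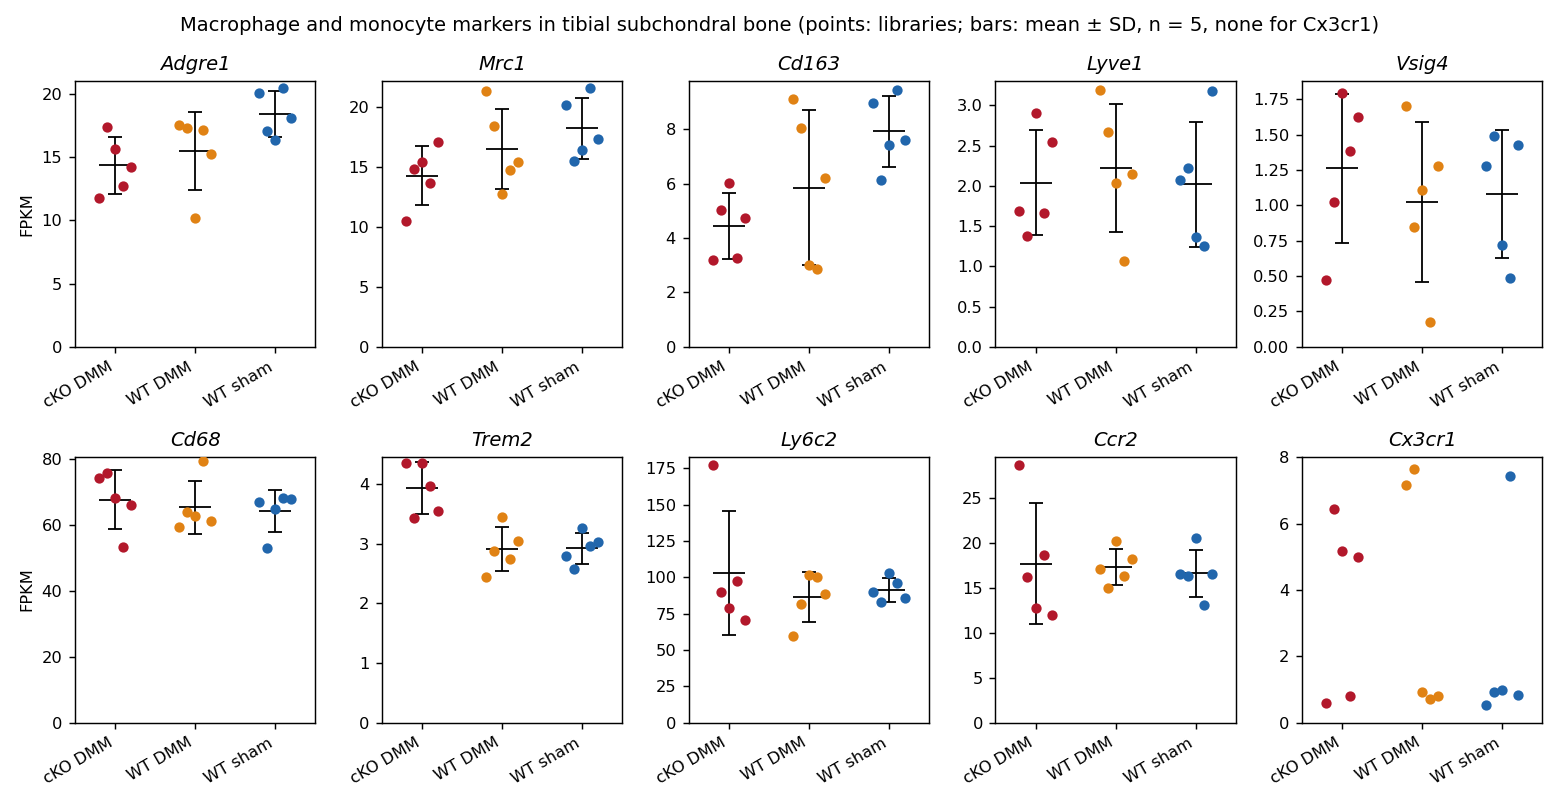
Each panel plots FPKM of 1 marker (y axis, from 0) in 5 libraries each of cKO DMM, WT DMM and WT sham bone (x axis); points are libraries and bars are the mean ± SD, left out for Cx3cr1. Trem2 points of cKO DMM bone lie at 3.43 FPKM or more, and Cd163 points of cKO DMM bone lie below every WT sham point. Cx3cr1 points fall near 1 FPKM or near 5 to 8 FPKM within each group, with only 1 high point in WT sham.

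No marker passed the adjusted threshold of 0.05 in any of the 3 comparisons by limma with Benjamini-Hochberg adjustment over 13653 genes. Among all genes tested, 0% passed for WT DMM against WT sham, 0.00732% for cKO DMM against WT DMM and 0.0293% for cKO DMM against WT sham. The single gene called for cKO DMM against WT DMM was AC117239.2, and the 4 called for cKO DMM against WT sham were AC117239.2, Osm, Gm45222 and Gm26917, named here after their values were seen. Osm encodes oncostatin M, a cytokine made by myeloid cells, with a difference of 1.02 ± 0.13 (SE) in log2(FPKM + 1) and limma adjusted p = 0.0110. At an unadjusted limma p under 0.05, the markers counted 0 of 10 for WT DMM against WT sham, where 6.93% of all genes were at that level. These were 946 genes, 751 of them higher. For cKO DMM against WT DMM, 1 of 10 was at that level, and it was higher. Among all 13653 genes, 444 were at that level in either direction, of which 151 were higher (1.11% of all genes). For cKO DMM against WT sham, 4 of 10 were, 1 higher and 3 lower, against 5.84% higher and 4.64% lower among all genes. The median log2 difference of the 10 markers was -0.04 for WT DMM minus WT sham, 0.01 for cKO DMM minus WT DMM and 0.05 for cKO DMM minus WT sham. Over all genes tested the median difference was 0.002, -0.02 and -0.01 in the same comparisons. Groups did not overlap for 0 of 10 markers in WT DMM against WT sham and 0 of 10 in cKO DMM against WT DMM, beside 1.79% and 0.381% of all genes. In cKO DMM against WT sham they did not overlap for 2 markers, 1 higher and 1 lower, beside 1.2% and 1.05% of all genes. The comparisons share libraries, so their values for a marker are not independent.

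**Figure D2:**
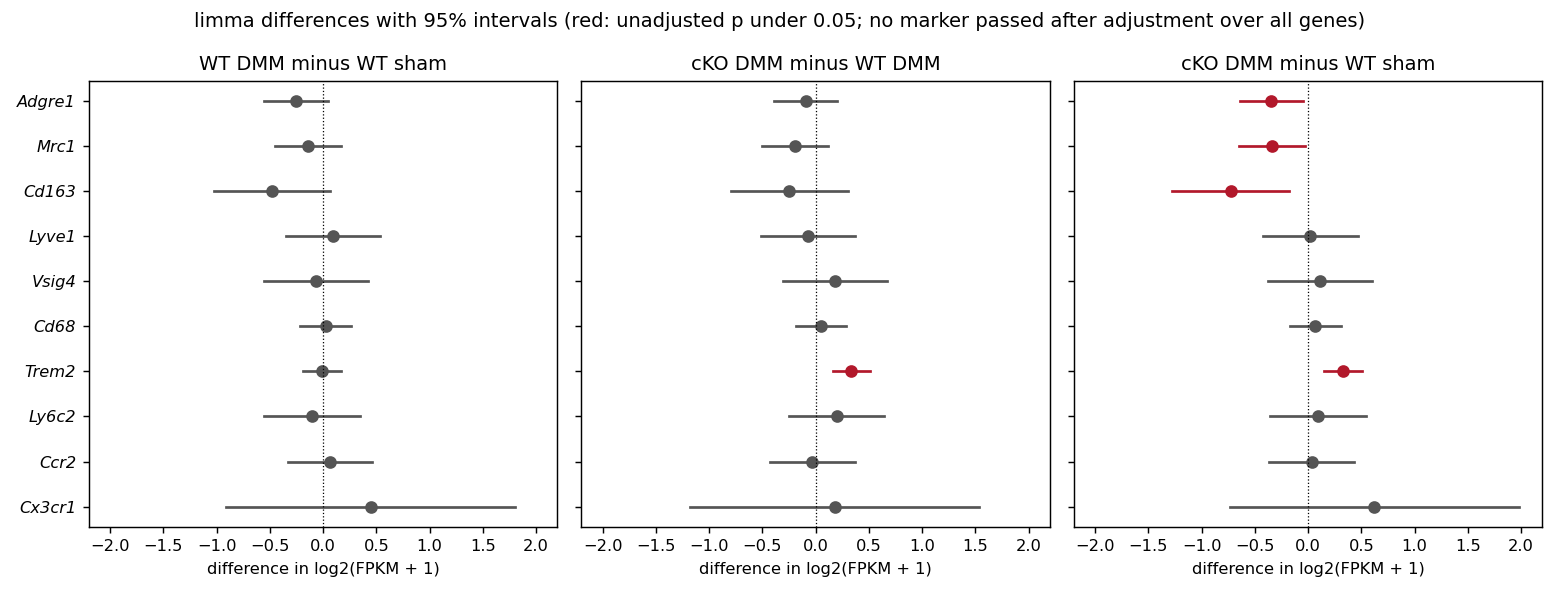
Each panel shows 1 comparison, with the difference in log2(FPKM + 1) on the x axis and the 10 markers on the y axis; points are limma estimates and lines their 95% intervals. Trem2 lies at 0.34 in cKO DMM minus WT DMM and 0.33 in cKO DMM minus WT sham, Cd163 lies at -0.73 in cKO DMM minus WT sham, and no interval in WT DMM minus WT sham leaves 0 out.

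Trem2 encodes a receptor for lipids and apolipoproteins that signals through Tyrobp and acts in lipid-laden macrophages and osteoclast precursors. It had 4.35, 3.43, 4.35, 3.96 and 3.55 FPKM in cKO DMM bone, against 2.44, 2.87, 3.44, 2.74 and 3.03 FPKM in WT DMM bone. WT sham bone had 2.79, 2.57, 3.27, 2.96 and 3.02 FPKM. Every cKO DMM library but replicate 2 was above the highest WT DMM library, replicate 3, and every cKO DMM library was above all WT sham libraries. The means were 3.93 ± 0.43 FPKM in cKO DMM and 2.91 ± 0.37 FPKM in WT DMM bone (SD, n = 5 each), a ratio of 1.35. The limma difference was 0.34 ± 0.08 (SE) in log2(FPKM + 1), with an unadjusted p of 0.00105, the 4th smallest of 13653 genes, and an adjusted p of 0.935. An exact two-sided permutation test of 5 against 5 libraries gave p = 0.0159, where the smallest possible is 0.00794. Against WT sham, whose mean was 2.92 ± 0.26 FPKM (SD, n = 5), the difference was 0.33 ± 0.08 (SE), with limma unadjusted p = 0.00130, adjusted p = 0.375 and exact permutation p = 0.00794. Trem2 in WT DMM and WT sham bone differed by -0.01 (95% interval -0.19 to 0.17, limma adjusted p = 0.985).

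The difference in Trem2 did not depend on 1 library: with each left out in turn it stayed between 0.29 and 0.38 against WT DMM, with limma unadjusted p of at most 0.00366. Without the 3 libraries that stood apart it was 0.34 with limma unadjusted p = 0.00224. The ratio of Trem2 to Cd68, the marker that varied least, averaged 0.0591 ± 0.0109 in cKO DMM, 0.0451 ± 0.0078 in WT DMM and 0.0457 ± 0.0037 in WT sham bone (SD, n = 5 each). This ratio overlapped between groups, at 0.04526 to 0.07423 in cKO DMM, 0.03455 to 0.05495 in WT DMM and 0.04172 to 0.05056 in WT sham libraries. Of 10 genes of TREM2-linked and lipid-associated macrophages, 0 passed after adjustment and 2 were higher at an unadjusted limma p under 0.05 in cKO DMM against WT DMM bone. They were Gpnmb, a glycoprotein of phagocytes and osteoclasts, at 5.99 ± 1.30 against 3.41 ± 1.31 FPKM, and Fabp5, a fatty acid carrier, at 9.37 ± 0.74 against 7.21 ± 1.60 FPKM (SD, n = 5 each). Gpnmb was at 5.72 ± 2.42 FPKM in WT sham bone, a difference of 0.12 for cKO DMM minus WT sham (limma adjusted p = 0.817). Spp1, which encodes osteopontin and is also made by osteoblasts, averaged 966.3 ± 162.9 FPKM in cKO DMM, 1216 ± 526.4 in WT DMM and 717.8 ± 396.3 in WT sham bone. Of 9 osteoclast genes tested, 0 were higher and 1, the transcription factor gene Nfatc1, was lower in cKO DMM than in WT DMM bone at an unadjusted limma p under 0.05.

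Adgre1, Mrc1 and Cd163 were lower in cKO DMM than in WT sham bone at an unadjusted p under 0.05 and not after adjustment, with the WT DMM means in between. Genotype and surgery both differ in that comparison, and their parts cannot be told apart. Adgre1 encodes F4/80, the surface receptor long used to define mouse macrophages. Its level was 11.8, 17.4, 15.7, 12.8 and 14.2 FPKM in cKO DMM, 17.6, 17.3, 10.2, 17.2 and 15.2 FPKM in WT DMM, and 20.1, 17.1, 16.4, 20.5 and 18.1 FPKM in WT sham libraries. All but 1 cKO DMM library were below every WT sham library. The lowest value of all was that of WT DMM replicate 3, 1 of the 3 libraries that stood apart. The difference of cKO DMM minus WT sham was -0.35 ± 0.14 (SE) in log2(FPKM + 1), with limma unadjusted p = 0.0252, adjusted p = 0.469 and exact permutation p = 0.0238.

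Mrc1, the mannose receptor CD206, had 10.4, 14.9, 15.4, 13.7 and 17.0 FPKM in cKO DMM, 21.3, 18.4, 12.7, 14.7 and 15.4 FPKM in WT DMM, and 20.2, 15.5, 16.4, 21.6 and 17.3 FPKM in WT sham bone. Replicate 5 of cKO DMM lay among the WT sham values, and the other cKO DMM libraries were below all of them. The difference of cKO DMM minus WT sham was -0.34 ± 0.14 (SE), with limma unadjusted p = 0.0345, adjusted p = 0.469 and exact permutation p = 0.0317. For cKO DMM minus WT DMM it was -0.19 (95% interval -0.50 to 0.12) with limma adjusted p = 0.935.

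Cd163, the haemoglobin-haptoglobin scavenger receptor, had 3.21, 5.02, 6.04, 3.25 and 4.76 FPKM in cKO DMM, against 8.96, 6.15, 7.45, 9.45 and 7.63 FPKM in WT sham bone. WT DMM libraries had 9.12, 8.05, 3.03, 2.85 and 6.22 FPKM. All cKO DMM libraries were below all WT sham libraries, and the 5 WT DMM libraries split, with replicates 3 and 4 at the bottom and replicates 1, 2 and 5 among the sham values. The means were 4.46 ± 1.22 in cKO DMM, 5.86 ± 2.86 in WT DMM and 7.93 ± 1.31 FPKM in WT sham bone (SD, n = 5 each), so the cKO DMM mean was 0.562 of that in WT sham. The difference of cKO DMM minus WT sham was -0.73 ± 0.26 (SE) in log2(FPKM + 1), with limma unadjusted p = 0.0129, adjusted p = 0.469 and exact permutation p = 0.00794. For WT DMM minus WT sham it was -0.48 (95% interval -1.03 to 0.07), with limma adjusted p = 0.820 and exact permutation p = 0.230. The ratio of Cd163 to Mrc1 ran from 0.238 to 0.393 in cKO DMM, from 0.193 to 0.438 in WT DMM and from 0.396 to 0.453 in WT sham libraries.

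Stromal genes differed in the same comparison at an unadjusted p. Of 10 fibroblast and synovial genes, 6 were higher and 0 lower in cKO DMM against WT sham bone at an unadjusted limma p under 0.05, as were 2 of 7 endothelial and lymphatic genes, with 0 past the adjusted threshold. The median log2 difference was 0.79 for the fibroblast and synovial list, whose summed FPKM ran from 304.2 to 1068 in cKO DMM and from 134.7 to 400.0 in WT sham libraries. In WT DMM minus WT sham bone the median for that list was 1.00. Over the 15 libraries its mean level had r = -0.55 with Adgre1, -0.28 with Mrc1 and -0.28 with Cd163. Within groups these were -0.27, 0.03 and 0.24. The part of stromal tissue in the Adgre1, Mrc1 and Cd163 values was not tested.

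The values of these 3 markers also move with the libraries that stood apart. Without those 3 libraries, the cKO DMM minus WT sham difference was -0.50 for Cd163 (limma unadjusted p = 0.0791, exact permutation p = 0.0179), -0.21 for Adgre1 (limma unadjusted p = 0.0332, exact permutation p = 0.107) and -0.19 for Mrc1 (limma unadjusted p = 0.170, exact permutation p = 0.161). Leaving out cKO DMM replicate 1 alone took Adgre1 to a limma unadjusted p of 0.0681 and Mrc1 to 0.102. Leaving out cKO DMM replicate 4, WT sham replicate 1 or WT sham replicate 4 also took both above 0.05, whereas Cd163 stayed at or under 0.0352 with any 1 library left out. In WT DMM minus WT sham, Cd163 reached a limma unadjusted p of 0.0199 without WT DMM replicate 1 and 0.0360 without replicate 2, and in cKO DMM minus WT DMM Adgre1 reached 0.0498 without WT DMM replicate 3.

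The 250 bases before the annotated start of Mrc1 and Cd163 are shown because these genes varied most closely together, with capitals marking GAGGAA or its reverse complement TTCCTC, the core bound by the myeloid factor PU.1. The sequences are RefSeq's for build GRCm38.p6, at chr2:14229164-14229413 for Mrc1 and chr6:124304401-124304650 for Cd163, both on the plus strand.
Mrc1: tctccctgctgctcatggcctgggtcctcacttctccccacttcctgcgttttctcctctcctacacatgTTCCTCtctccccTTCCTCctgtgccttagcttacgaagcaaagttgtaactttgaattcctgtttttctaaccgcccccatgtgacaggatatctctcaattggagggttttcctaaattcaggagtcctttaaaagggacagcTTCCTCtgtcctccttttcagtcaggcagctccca
Cd163: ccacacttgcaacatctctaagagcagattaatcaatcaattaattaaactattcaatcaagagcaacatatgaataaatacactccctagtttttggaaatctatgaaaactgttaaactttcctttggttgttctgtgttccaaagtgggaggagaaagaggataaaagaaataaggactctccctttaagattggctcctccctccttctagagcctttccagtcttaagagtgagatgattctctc
The Mrc1 window held 3 matches and the Cd163 window held 0, read on both strands. Of 32851 promoter windows of that length in the table, 23.3% held the motif, as did those of 5 of the 8 markers in the table, namely Cd68, Ly6c2, Mrc1, Trem2 and Vsig4. Adgre1 and Lyve1 were not matched.

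Of 13 core macrophage genes, 0 passed in any comparison after adjustment, and 2 were lower at an unadjusted limma p under 0.05 in cKO DMM against WT sham bone. They were Mpeg1, which encodes a pore-forming protein of phagocytes, at 84.6 ± 12.8 against 102.0 ± 9.5 FPKM, and Mertk, a receptor for dying cells, at 5.76 ± 1.83 against 8.63 ± 1.04 FPKM (SD, n = 5 each). Mpeg1 averaged 85.4 ± 13.3 and Mertk 6.52 ± 1.80 FPKM in WT DMM bone. Csf1r, the receptor for the main macrophage growth factor, averaged 30.4 ± 5.4 in cKO DMM, 33.8 ± 5.0 in WT DMM and 34.0 ± 3.4 FPKM in WT sham bone. Among 11 tested genes of resident macrophages, Siglec1, the sialic acid receptor CD169, averaged 2.18 ± 0.95 in cKO DMM against 4.86 ± 1.31 FPKM in WT sham bone (limma unadjusted p = 0.00822, adjusted p = 0.469), and was the 1 gene at that level, lower. Folr2, a folate receptor of resident cells, was the 1 gene at that level in WT DMM against WT sham bone, higher at 1.94 ± 0.61 against 1.08 ± 0.40 FPKM (limma unadjusted p = 0.0129, adjusted p = 0.438). In cKO DMM against WT DMM bone 0 genes of either list were at that level. The summed FPKM of the 12 resident genes overlapped, at 233.8 to 325.3 in cKO DMM, 231.6 to 360.6 in WT DMM and 273.8 to 341.1 in WT sham libraries.

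Cd68 did not differ detectably in any comparison. It had 74.3, 75.9, 68.3, 53.3 and 66.1 FPKM in cKO DMM, 59.3, 64.0, 62.7, 79.3 and 61.1 FPKM in WT DMM, and 67.0, 53.0, 64.6, 68.2 and 68.0 FPKM in WT sham bone. The groups overlapped over nearly their whole range. The limma difference was 0.05 (95% interval -0.19 to 0.28) for cKO DMM minus WT DMM and 0.02 (95% interval -0.21 to 0.26) for WT DMM minus WT sham. Over the 15 libraries, Pearson r of Cd68 was 0.16 with Adgre1, -0.13 with Mrc1 and -0.17 with Cd163.

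Lyve1 and Vsig4 were low and overlapped across groups. Lyve1, a hyaluronan receptor shared by lymphatic endothelium and perivascular macrophages, had 1.69, 1.38, 2.91, 1.66 and 2.55 FPKM in cKO DMM, 3.20, 2.67, 2.04, 1.06 and 2.15 FPKM in WT DMM, and 2.07, 2.22, 1.36, 1.25 and 3.18 FPKM in WT sham bone. Vsig4, a complement receptor of resident macrophages including those of the joint lining, had 0.47, 1.02, 1.80, 1.38 and 1.62 FPKM in cKO DMM, 1.70, 0.85, 1.11, 0.17 and 1.28 FPKM in WT DMM, and 1.28, 1.49, 0.72, 0.49 and 1.43 FPKM in WT sham bone. High and low libraries of both genes occurred in every group. The limma difference of cKO DMM minus WT DMM was -0.07 (95% interval -0.52 to 0.37) for Lyve1 and 0.18 (95% interval -0.31 to 0.67) for Vsig4. For WT DMM minus WT sham it was 0.09 (95% interval -0.35 to 0.54) for Lyve1 and -0.07 (95% interval -0.55 to 0.42) for Vsig4. Over the 15 libraries the pair moved together (Pearson r = 0.78, Spearman rho = 0.79), and r was 0.67 without the 2 libraries farthest from the median.

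Among the genes closest to Vsig4 and Lyve1 were some known from joint and vessel tissue. Prg4, which encodes the lubricin of synovium and cartilage surface, had r = 0.90 with Vsig4 over 15 libraries and 0.81 without the 2 farthest, followed by Pla1a at 0.82 and Ccn2, connective tissue growth factor, at 0.80. Mapk8ip1 had r = 0.92, Tmem100 0.90 and Scara5, a ferritin receptor of stromal cells, 0.89 with Lyve1. The mean log2 level of 8 endothelial and lymphatic genes had r = 0.76 with Lyve1 and 0.57 with Vsig4, and that of 10 fibroblast and synovial genes 0.63 and 0.51. Without the 2 farthest libraries these were 0.68, 0.39, 0.49 and 0.305. Other lists were about as close, at 0.73 and 0.70 for ligand and growth factor genes and 0.56 and 0.55 for fast muscle genes. Within groups, Vsig4 had r = 0.71 with endothelial, 0.80 with fibroblast, 0.795 with ligand and 0.54 with muscle genes. Genes of the fibroblast and endothelial lists differed between groups at an unadjusted p, where 751 of all 13653 genes were higher in WT DMM than in WT sham bone. Of 10 fibroblast and synovial genes, 7 were higher at an unadjusted limma p under 0.05 in WT DMM against WT sham bone and 0 passed after adjustment, with Col3a1, a fibrillar collagen, at 97.0 ± 38.6 against 16.6 ± 8.6 FPKM (SD, n = 5 each). Of 7 endothelial and lymphatic genes tested, 2 were higher at that level, Ccl21a, a chemokine of lymphatic vessels, at 9.0 ± 5.9 against 2.0 ± 1.4 FPKM, and Pdpn, podoplanin, at 2.5 ± 0.84 against 1.31 ± 0.51 FPKM (SD, n = 5 each). The part of stromal or muscle tissue in the Lyve1 and Vsig4 values was not tested. Has1, a hyaluronan synthase whose product Lyve1 binds, averaged 2.24 ± 1.45 in cKO DMM, 2.43 ± 1.39 in WT DMM and 0.54 ± 0.25 FPKM in WT sham bone, a difference of 1.03 for WT DMM minus WT sham (limma unadjusted p = 0.00926, adjusted p = 0.401).

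Ly6c2 encodes the Ly6C antigen of classical monocytes and was the most abundant marker. It had 177.2, 90.2, 79.0, 97.5 and 70.4 FPKM in cKO DMM, 59.4, 81.3, 101.4, 100.2 and 88.8 FPKM in WT DMM, and 89.7, 82.7, 102.7, 96.1 and 85.8 FPKM in WT sham bone. Apart from cKO DMM replicate 1, at 177.2 FPKM, the groups covered a common range. The limma difference of cKO DMM minus WT DMM was 0.20 (95% interval -0.25 to 0.64, adjusted p = 0.935), and WT DMM minus WT sham was -0.10 (95% interval -0.55 to 0.34, adjusted p = 0.937).

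Ly6c1, the neighbouring paralog that endothelium and lymphocytes also express, is nearly identical in sequence, so the split of reads between the genes is uncertain. The coding sequences of the annotated transcripts Ly6c2-201 and Ly6c1-201 (GENCODE, GRCm38, minus strand, genes at chr15:75108161-75111970 and chr15:75045013-75048830) begin with the stretches shown here for this reason, bases 1 to 120, with capitals at the 6 positions that differ there.
Ly6c2: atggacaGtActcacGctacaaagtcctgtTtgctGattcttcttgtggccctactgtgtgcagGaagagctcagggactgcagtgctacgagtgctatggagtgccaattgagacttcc
Ly6c1: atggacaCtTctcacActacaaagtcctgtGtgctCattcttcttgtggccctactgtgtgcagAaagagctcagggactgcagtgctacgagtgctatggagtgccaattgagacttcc
The 396 coding bases differ at 9 positions (97.7% identity), with a longest identical run of 188 bases. Of 297 windows of 100 bases, 89 are the same in both genes. Ly6c1 had 26.8, 14.6, 33.5, 29.7 and 22.6 FPKM in cKO DMM, 23.6, 23.8, 38.9, 16.3 and 23.9 FPKM in WT DMM, and 15.0, 19.0, 15.6, 13.3 and 25.1 FPKM in WT sham bone. The library highest for Ly6c2, cKO DMM replicate 1, was within the range of the others for Ly6c1. The library highest for Ly6c1, WT DMM replicate 3, was also the highest WT DMM library for Ly6c2. The WT DMM minus WT sham difference of Ly6c1 was 0.48 ± 0.24 (SE), with limma adjusted p = 0.776 and exact permutation p = 0.0952.

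Ccr2, the receptor for the chemokine Ccl2, had 28.7, 16.2, 12.8, 18.7 and 12.0 FPKM in cKO DMM, 17.1, 15.0, 20.2, 16.3 and 18.2 FPKM in WT DMM, and 16.5, 16.3, 20.6, 13.2 and 16.6 FPKM in WT sham bone. The same library, cKO DMM replicate 1, was the highest, and the groups overlapped otherwise. The limma difference was -0.03 (95% interval -0.43 to 0.37) for cKO DMM minus WT DMM and 0.06 (95% interval -0.33 to 0.46) for WT DMM minus WT sham. Ccr2 and Ly6c2 had r = 0.75 over the 15 libraries and 0.31 without the 2 libraries farthest from the median.

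Ly6c2, and less closely Ccr2, followed genes of the neutrophil lineage across libraries. The Pearson r of Ly6c2 was 0.98 with the mean level of 10 neutrophil genes and 0.92 without the 2 farthest libraries. With 12 monocyte genes r was 0.82, and 0.20 without the 2 farthest libraries. That list holds genes of non-classical monocytes, such as Nr4a1, Spn, Ace and Treml4, beside those of classical ones. Ccr2 had r = 0.76 with the neutrophil genes, both with all libraries and without the 2 farthest. With the monocyte genes Ccr2 had r = 0.50, and 0.04 without the 2 farthest. Differences between these r values were not tested. The 3 genes closest to Ly6c2 among 13653 were Trem3, a receptor of myeloid cells, Sqor, a mitochondrial sulfide oxidase, and Elane, the elastase of neutrophil precursors, with r = 0.98 each. In the library with the highest Ly6c2, cKO DMM replicate 1, the 10 neutrophil genes summed to 52540 FPKM, against 20210 to 31040 in the other cKO DMM libraries, 15530 to 37760 in WT DMM and 23000 to 30850 in WT sham libraries. No neutrophil gene was at an unadjusted limma p under 0.05 in any comparison. The Ly6c2 difference of cKO DMM minus WT sham was 0.09 (limma adjusted p = 0.828), and -0.02 with the neutrophil level as a covariate. Because Ly6c2 followed that level so closely across libraries, the adjusted value cannot tell which cells the Ly6c2 RNA came from. The part of neutrophil-lineage cells in the Ly6c2 and Ccr2 values was not tested. Of 12 monocyte genes, 0 passed after adjustment, and in cKO DMM against WT DMM bone 1 was at an unadjusted limma p under 0.05. It was Pou2f2, a transcription factor, lower at 1.60 ± 0.69 against 2.24 ± 0.49 FPKM. In cKO DMM against WT sham bone 1 was higher, S100a4 at 115.6 ± 40.1 against 66.3 ± 13.1 FPKM, and 2 were lower, Pou2f2 and Treml4, a receptor of non-classical monocytes, which was at 5.71 ± 0.99 against 6.81 ± 0.31 FPKM (SD, n = 5 each).

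Cx3cr1 took 2 separate levels within every group, though in WT sham bone only replicate 4 was at the higher one. It had 0.59, 6.43, 5.17, 0.80 and 4.98 FPKM in cKO DMM, 7.16, 7.66, 0.93, 0.72 and 0.79 FPKM in WT DMM, and 0.53, 0.91, 0.99, 7.44 and 0.84 FPKM in WT sham bone. No library lay between 0.99 and 4.98 FPKM: 9 were below and 6 above. The 6 high libraries were replicates 2, 3 and 5 of cKO DMM, 1 and 2 of WT DMM and 4 of WT sham. This gap of 1.58 on the log2(FPKM + 1) scale was the 30th largest of 13653 genes, against a median gap of 0.11 and gaps of 0.09 to 0.44 for the other 9 markers, a measure chosen after the values were seen. Group means describe such values poorly, and the limma difference was 0.18 (95% interval -1.18 to 1.53) for cKO DMM minus WT DMM and 0.44 (95% interval -0.91 to 1.80) for WT DMM minus WT sham. The labels name no batch that could be set beside the split. Its ligand Cx3cl1 averaged 1.54 ± 0.58 in cKO DMM, 1.93 ± 0.43 in WT DMM and 1.54 ± 0.57 FPKM in WT sham bone. Because the libraries fall into separate clusters, no correlation is given for Cx3cr1.

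**Figure D3:**
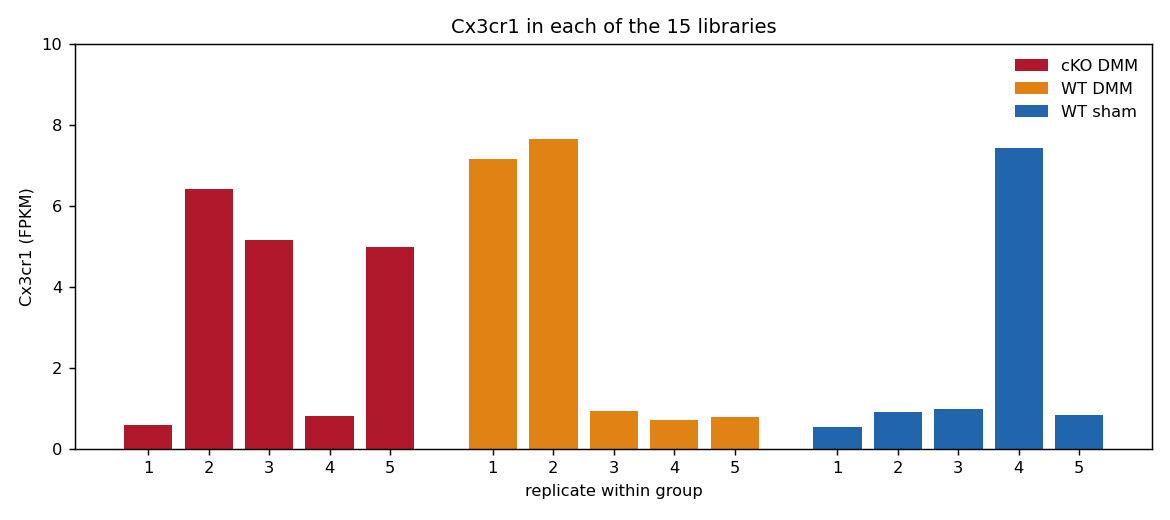
Bars give Cx3cr1 in FPKM (y axis, from 0) for each of the 15 libraries, by replicate within cKO DMM, WT DMM and WT sham (x axis). Several bars of cKO DMM and WT DMM, and in WT sham only that of replicate 4, stand at 4.98 FPKM or higher. The rest stand at 0.99 FPKM or lower.

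Among the other 9 markers, 36 pairs were compared over the 15 libraries, all from 1 table with FPKM totals of each library in common, so the correlations are descriptions. The closest pairs were Mrc1 with Cd163 (r = 0.86, rho = 0.91), Adgre1 with Mrc1 (r = 0.81, rho = 0.79), Lyve1 with Vsig4, and Adgre1 with Cd163 (r = 0.77, rho = 0.76). After group means were subtracted these were 0.82, 0.75, 0.82 and 0.65, so the markers also moved together within groups. Mrc1 ran against Ly6c2 (r = -0.71) and against Trem2 (r = -0.66), and without the 2 farthest libraries these were -0.67 and -0.56. Trem2 also ran against Adgre1 (r = -0.63, -0.64 within groups).

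The genes nearest to each marker differed between the 3 receptors that moved together. Adgre4, a paralog of Adgre1 (r = 0.97), Lmbrd2 (0.97) and Pcf11 (0.97) were nearest to Adgre1. Slc7a8, an amino acid transporter (r = 0.95), Slfn14 (0.94) and Ccdc92b (0.94) were nearest to Mrc1, whereas Itgad, an integrin of splenic and marrow macrophages (r = 0.95), Slco2b1 (0.93) and Wdr59 (0.93) were nearest to Cd163. Pmm1 had r = 0.85 with Trem2, where AC121967.1 had 0.87 and Gm8355 0.84, and within groups these 3 were 0.72, 0.58 and 0.63. Litaf, a lysosomal protein gene (r = 0.86), Ighv1-54 (0.86) and Wdyhv1 (0.84) were nearest to Cd68, and Sptlc1 (0.88), Psmb2 (0.86) and Apoc2 (0.86) to Ccr2.

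**Figure D4:**
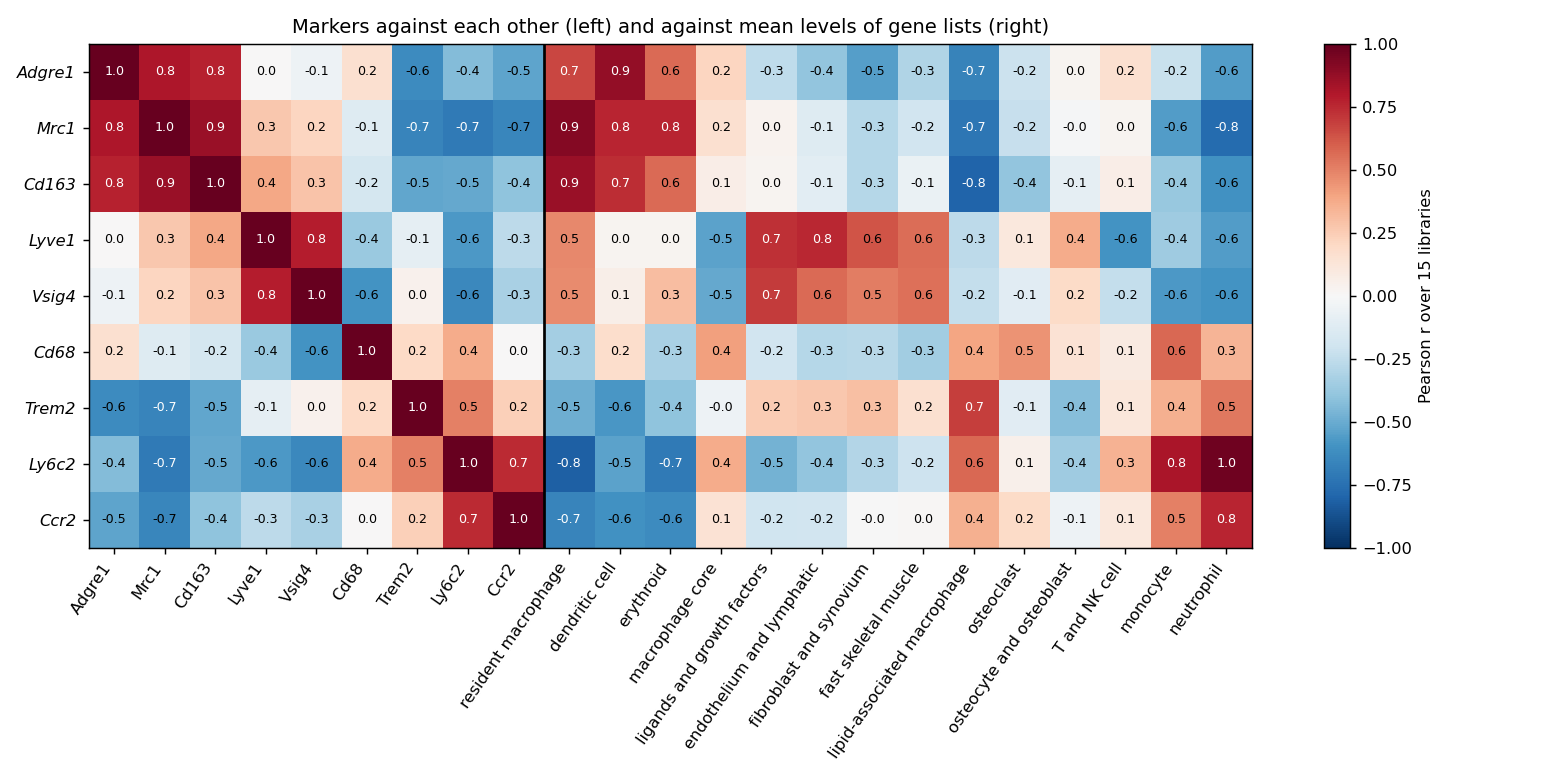
Each cell gives Pearson r of log2(FPKM + 1) over 15 libraries between a marker (rows) and another marker or the mean level of a gene list (columns, right of the line). Mrc1 and Cd163 have r of 0.9 with the resident macrophage list, and Ly6c2 has r of 1.0, rounded, with the neutrophil list.

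Against the lists, Mrc1 had r = 0.92 and Cd163 r = 0.86 with resident macrophage genes, and 0.82 and 0.84 without the 2 farthest libraries. The 13 core macrophage genes did not follow them: r was 0.16 for Mrc1, 0.06 for Cd163 and 0.22 for Adgre1, and -0.39, -0.46 and -0.27 without the 2 libraries farthest on that list. The mean log2 level of the core list varied little, with an SD of 0.05 in cKO DMM, 0.08 in WT DMM and 0.11 in WT sham libraries. Whether that list is particular to macrophages in bone was not tested. Lyve1 and Vsig4 ran against the core list, at r = -0.54 and -0.51, and Cd68 had r = 0.41. Adgre1 had r = 0.88 with dendritic cell genes and 0.67 with the resident genes, the last falling to 0.34 without the 2 farthest libraries. With the 10 lipid-associated genes, a list that holds none of the markers, Cd163 had r = -0.80 and Trem2 r = 0.69. Mrc1 also had r = 0.76 with 10 erythroid genes, 0.42 without the 2 farthest libraries. In cKO DMM replicate 1, where Mrc1 was lowest, the erythroid genes summed to 40150 FPKM, against 67950 to 144400 in the other libraries. With 10 neutrophil genes r was -0.77 for Mrc1, -0.61 for Cd163 and -0.56 for Adgre1. Without the 2 farthest libraries these were -0.464, -0.457 and -0.415. With the neutrophil level as a covariate, the cKO DMM minus WT sham difference was -0.27 for Mrc1 and -0.30 for Adgre1. The limma unadjusted p-values were then 0.00731 and 0.02005, and the adjusted ones 0.259 and 0.299. Without the covariate the differences were -0.34 and -0.35, with limma unadjusted p-values of 0.0345 and 0.0252. The estimates were thus smaller with the covariate, and so were the unadjusted p-values. Beyond that covariate, the part of other blood cells in these marker values was not tested.

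**Figure D5:**
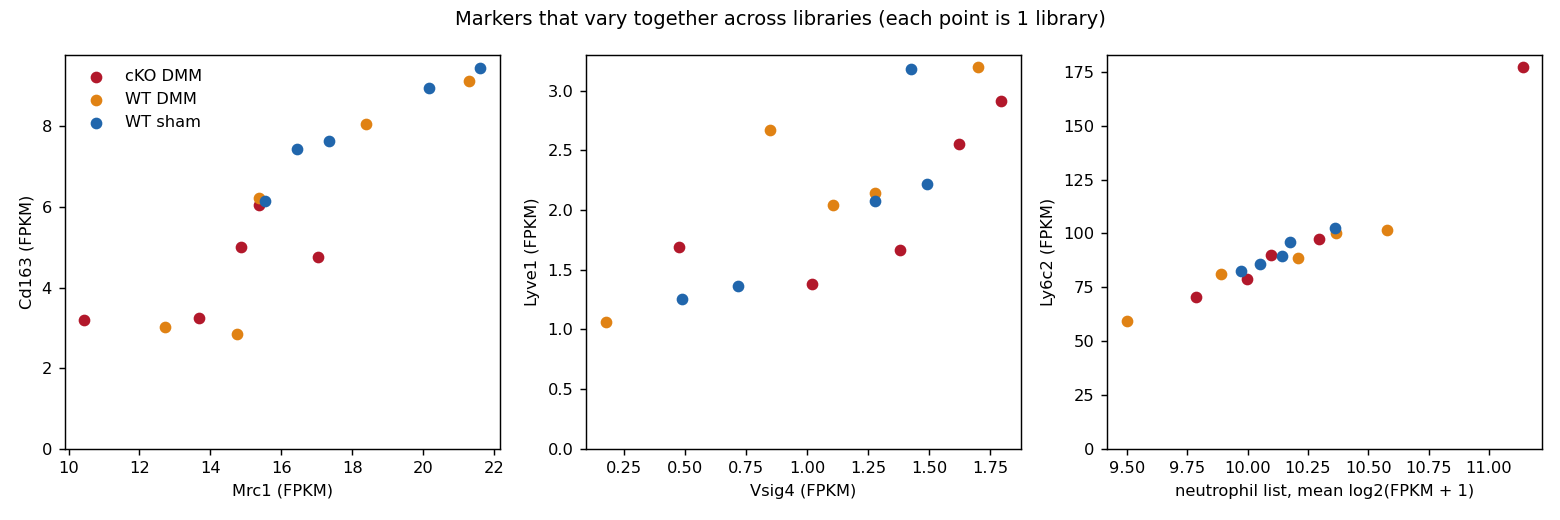
Left, Cd163 against Mrc1 in FPKM; middle, Lyve1 against Vsig4 in FPKM; right, Ly6c2 in FPKM against the mean log2(FPKM + 1) of 10 neutrophil genes; each point is 1 library of cKO DMM, WT DMM or WT sham bone. The points of each panel climb together within the groups, and the single Ly6c2 point at 177.2 FPKM is cKO DMM replicate 1.

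Csf1, the growth factor that sustains macrophages and osteoclasts, averaged 9.10 ± 1.69 in cKO DMM, 10.6 ± 1.4 in WT DMM and 9.38 ± 1.18 FPKM in WT sham bone (SD, n = 5 each), with limma adjusted p = 0.935 for cKO DMM against WT DMM. Of 6 ligand and growth factor genes tested, 0 were at an unadjusted limma p under 0.05 in that comparison and 1, Has1, in each of the others. Osteoclast genes, the other fate of these precursors, were higher at that level for 4 of 9 in WT DMM against WT sham bone, with 0 after adjustment. Of all 13653 genes, 946 were at that level there, 751 of them higher. Ctsk, the collagen-degrading protease of osteoclasts, averaged 321.6 ± 63.5 in cKO DMM, 391.7 ± 138.1 in WT DMM and 221.4 ± 60.6 FPKM in WT sham bone, and Oscar, a collagen receptor of osteoclasts, averaged 5.98 ± 1.21 in cKO DMM, 7.37 ± 2.24 in WT DMM and 3.99 ± 1.30 FPKM in WT sham bone. Of 7 T and NK cell genes tested, 2 were lower in WT DMM against WT sham bone, Cd4 at 3.66 ± 0.93 against 5.78 ± 1.14 FPKM and Ncr1 at 1.28 ± 0.36 against 1.89 ± 0.34 FPKM. None of the 6 dendritic cell, 10 erythroid or 10 fast muscle genes tested was at an unadjusted limma p under 0.05 in any comparison. Of the 10 osteocyte and osteoblast genes, 3 were lower in cKO DMM against WT DMM bone at that level, among them Sost, the osteocyte inhibitor of bone formation, at 16.5 ± 3.0 against 23.4 ± 3.6 FPKM (SD, n = 5 each), and 0 passed after adjustment. Of all 13653 genes, 444 were at that level in that comparison, 151 of them higher and the rest lower.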

How the data were processed

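Tibial subchondral bone of 15 libraries in 3 groups was analysed. Per the labels' protocols, RNA was enriched for poly(A) and libraries were built with dUTP in the second strand. The authors deposited FPKM values for all libraries as 1 table of 55335 gene IDs, and 0 columns were unmatched. Tools named in the submitters' processing notes are STAR 2.7.10a, featureCounts 2.0.3, Trimmomatic 0.39, FastQC 0.11.9, DESeq2 1.42.0 and R 4.3.1, with build GRCm39. How FPKM was calculated is not given in the sources used for this work. Depth is unknown.

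FPKM was taken as log2(FPKM + 1), so fold changes of weakly expressed genes are understated. The 13653 genes that reached 1 FPKM in 5 or more libraries entered 1 limma 3.58.1 fit (R 4.3.3) with 3 group means and an intensity trend, Benjamini-Hochberg adjusted over all of them. Single markers were also tested by exact two-sided permutation. The fit was tested on simulated data. The 14 gene lists beside the markers held 141 genes, and the markers and lists were chosen with earlier results of these data known. Named genes were the 10 markers, Pvalb, Ly6c1, the 3 genes closest to each marker by Pearson r and the 2 genes per list with the smallest p in WT DMM against WT sham and in cKO DMM against WT DMM; the genes past the adjusted threshold were named after their values were seen.

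Alternatives were median-of-ratios scaling, a filter of 5 FPKM or none, a pseudocount of 0.1, a muscle or neutrophil covariate, only the 10 libraries compared, the replicate number as a block, permutation on FPKM, each library left out, and 3 libraries left out. Sequences came from GRCm38 annotation, another build than that of the table. Figures were drawn with matplotlib 3.10.9.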

Additional observations from a re-analysis of the deposited data

Results flagged for a closer look

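In 30 groups of 5 values (10 markers in 3 groups), 4 had an end value whose gap to its neighbour exceeded the 95% limit of Dixon's test, which chance alone exceeds in about 1 of 20 groups. Ly6c2 stood at 177.2 FPKM in cKO DMM replicate 1, against 70.4 to 97.5 FPKM in the other cKO DMM libraries. Cx3cr1 stood at 7.44 FPKM in WT sham replicate 4, against 0.53 to 0.99 FPKM in the other WT sham libraries. Cd68 stood at 79.3 FPKM in WT DMM replicate 4, against 59.3 to 64.0 FPKM in the other WT DMM libraries. Cd68 stood at 53.0 FPKM in WT sham replicate 2, against 64.6 to 68.2 FPKM in the other WT sham libraries.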

How the results depend on the processing

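No marker passed the adjusted threshold in any comparison under any alternative run. In WT DMM against WT sham, genes past it numbered 249 with the muscle covariate, 3 with the neutrophil covariate and 2 with no filter, against 0, and 0 to 2 with each library left out. Markers at an unadjusted p under 0.05 there numbered 1 with the muscle covariate, 1 with median-of-ratios scaling (both Adgre1) and 2 with the neutrophil covariate (Adgre1 and Cd163), against 0, and 0 to 1 with each library left out. In cKO DMM against WT DMM, genes past the threshold numbered 2 with no filter, against 1, and 1 to 2 with each library left out. Markers at an unadjusted p under 0.05 numbered 0 with the filter of 5 FPKM, which removes Trem2, against 1, and 1 to 2 with each library left out. In cKO DMM against WT sham, genes past the threshold numbered 8 with the muscle covariate, 7 with median-of-ratios scaling, 11 with the neutrophil covariate, 7 with no filter and 7 without the 3 libraries that stood apart, against 4, and 2 to 8 with each library left out. Markers numbered 2 without those 3 libraries, against 4, and 2 to 4 with each library left out. With the muscle covariate, Mmp2 (1.58, adjusted p = 0.00420) and Col3a1 (2.88, adjusted p = 0.00438) passed in limma for WT DMM against WT sham.

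With the replicate number as a block, 1 gene passed in cKO DMM against WT sham and 3 markers were at an unadjusted p under 0.05, Mrc1 being lost at limma unadjusted p = 0.0661. Same-numbered libraries correlated at -0.46 to 0.40 in their deviations from the group means, so the numbers do not pair them; the block changed no other count by over 1.5 times.

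Some differences changed sign, among them those of Pvalb (-0.69 for WT DMM minus WT sham, -0.38 for cKO DMM minus WT DMM) and Slc4a1 (-0.37 for WT DMM minus WT sham). For WT DMM minus WT sham, the muscle covariate gave Cd68 -0.01, Vsig4 0.041 and Pvalb 0.11, and without the 3 libraries Slc4a1 was 0.002. For cKO DMM minus WT DMM, the neutrophil covariate gave Lyve1 0.004 and Ly6c1 -0.013, the muscle covariate Ly6c1 -0.12, median-of-ratios scaling Ccr2 0.023 and FPKM itself Ccr2 0.029. Without the 3 libraries that comparison gave Lyve1 0.021, Ly6c2 -0.027, Pvalb 0.44, S100a8 -0.008, Elane -0.055, Itgax 0.015 and Cd209a 0.089. For cKO DMM minus WT sham, the neutrophil covariate gave Ccr2 -0.044 and Ly6c2 -0.015, and without the 3 libraries Ccr2 was -0.26 and Ly6c2 -0.20. The cause was not tested.

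With each library left out, WT DMM minus WT sham ranged from -0.049 to 0.054 for Cd68, -0.012 to 0.24 for Lyve1, -0.011 to 0.14 for Ccr2, -0.057 to 0.036 for Trem2, -0.18 to 0.12 for Vsig4, -0.17 to 0.022 for Ly6c2, -0.27 to 0.023 for S100a8 and -0.57 to 0.002 for Slc4a1. For cKO DMM minus WT DMM it ranged from -0.22 to 0.032 for Lyve1, -0.065 to 0.52 for Cx3cr1, -0.22 to 0.081 for Ccr2, -0.005 to 0.32 for Vsig4, -0.018 to 0.31 for Ly6c2, -0.74 to 0.13 for Pvalb, -0.13 to 0.19 for Ly6c1, -0.001 to 0.36 for S100a8, -0.056 to 0.34 for Elane, -0.38 to 0.094 for Cd209a, -0.61 to 0.04 for Slc4a1 and -0.40 to 0.002 for Ermap. For cKO DMM minus WT sham it ranged from -0.077 to 0.15 for Lyve1, -0.15 to 0.15 for Ccr2, 0.0 to 0.26 for Vsig4 and -0.12 to 0.21 for Ly6c2.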
